A study of Mus musculus with 72 samples.

Results

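Sex differences in liver gene expression were measured in old DBA2/J mice, an inbred laboratory strain, kept on 20% caloric restriction (CR): 6 males against 6 females, 1 bead array per mouse. These are the 12 signal columns named for DBA2/J males and females at 20% CR, of 72 arrays in all. A probe was kept if its detection p-value, the authors' measure of signal above negative-control beads, was under 0.01 on 6 or more of the 12 arrays. Of 15960 autosomal genes named on the arrays, 6316 had such a probe (8291 autosomal probes).

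The whole study crossed sex with 2 strains (DBA2/J and C57BL/6J) and 3 diets: ad libitum feeding (AL), 20% CR and 40% CR, with 6 mice in each of 12 groups. The mice were bred in house from Jackson Laboratory stock and carried no transgene. Chow was restricted from 6 months of age, so that the mice had been on their diets for 17 to 18 months when livers were taken, at 23 to 24 months of age, on 3 mornings in a row. On that morning restricted mice had not received their ration, whereas AL mice had eaten freely, so diet and time since the last meal cannot be told apart in any comparison with AL. Each female array is numbered as in the files (52, 53, 54, 58, 64 and 67), and so is each male array (53, 54, 55, 56, 57 and 59). No label says that a number shared by the sexes marks a pair.

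Mouse liver is among the most sexually dimorphic of organs. The pituitary releases growth hormone in spaced pulses in males and almost continuously in females, and hepatocytes read that pattern through the growth hormone receptor, the kinase JAK2 and the transcription factor STAT5. Pulsed hormone maintains male-biased genes such as the major urinary proteins, which carry pheromones in urine, and Cyp2d9. Continuous hormone maintains female-biased genes such as the Cyp2b and Cyp3a families, partly through the repressors BCL6 in males and CUX2 in females. Androgens and oestrogens act largely by setting the hormone pattern.

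Upstream sequence is shown first for the 3 genes with the largest differences higher in males, Mup2, Mup6 and Gstp2, for Gstp1 as the close paralog of Gstp2, and for Slc22a26 as a gene lower in males. Each is the 250 bases before the start given with the promoter. For Mup2 part of that window lies within the annotated gene, which reaches chr4:60139977. These are RefSeq sequences of the C57BL/6J reference, build GRCm38.p6, and not of DBA2/J. Mup2 (chr4:60139857-60140106, minus strand) and Mup6 (chr4:60003231-60003480, plus strand) lie in the major urinary protein cluster. Gstp2 (chr19:4042222-4042471, minus strand) and Gstp1 (chr19:4037913-4038162, minus strand) encode glutathione S-transferases of class pi. Slc22a26 (chr19:7802668-7802917, minus strand) encodes an organic anion transporter known as female-biased. Capitals mark a match to TTCNNNGAA, the palindrome that STAT5 dimers bind, read on both strands, which are the same for this motif.
Mup2: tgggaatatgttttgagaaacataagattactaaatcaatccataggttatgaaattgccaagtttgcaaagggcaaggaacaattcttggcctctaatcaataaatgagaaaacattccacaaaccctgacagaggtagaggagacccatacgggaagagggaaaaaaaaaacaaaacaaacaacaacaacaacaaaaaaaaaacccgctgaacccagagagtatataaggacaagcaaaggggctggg
Mup6: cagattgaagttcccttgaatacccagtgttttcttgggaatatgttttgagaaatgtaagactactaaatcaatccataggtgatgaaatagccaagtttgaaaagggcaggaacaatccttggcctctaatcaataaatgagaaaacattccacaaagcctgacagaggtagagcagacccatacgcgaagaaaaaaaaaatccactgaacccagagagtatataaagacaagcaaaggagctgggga
Gstp2: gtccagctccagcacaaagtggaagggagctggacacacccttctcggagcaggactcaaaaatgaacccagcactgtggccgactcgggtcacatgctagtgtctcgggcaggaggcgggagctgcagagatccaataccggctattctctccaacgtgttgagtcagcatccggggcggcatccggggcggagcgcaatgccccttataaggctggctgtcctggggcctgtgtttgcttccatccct
Gstp1: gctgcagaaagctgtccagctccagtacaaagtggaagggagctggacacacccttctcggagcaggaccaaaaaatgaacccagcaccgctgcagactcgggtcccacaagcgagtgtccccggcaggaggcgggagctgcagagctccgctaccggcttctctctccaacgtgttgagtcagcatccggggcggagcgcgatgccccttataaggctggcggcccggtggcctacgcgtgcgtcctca
Slc22a26: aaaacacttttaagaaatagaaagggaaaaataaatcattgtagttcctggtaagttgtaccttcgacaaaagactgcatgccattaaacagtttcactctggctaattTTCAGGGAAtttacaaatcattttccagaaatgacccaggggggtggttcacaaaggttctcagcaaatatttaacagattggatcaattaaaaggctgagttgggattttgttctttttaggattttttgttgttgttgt
Aligned end to end, the upstream sequences of Mup2 and Mup6 matched at 200 of 287 columns (69.7%), and those of Gstp2 and Gstp1 at 209 of 265 columns (78.9%). Among the 5, only Slc22a26 held the motif, once. Among all promoters given, 2306 of 32851 windows of this length held it (7.02%), and 2197 of 27025 genes had such a window (8.13%). By gene it was found in 4 of 21 tested male-biased genes with a promoter given (Bcl6, C8a, Keg1 and Nox4). It was found in 2 of 15 such female-biased genes (Hamp2 and Slc22a26). These are letter matches and do not show binding.

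The sexes matched their labels: Eif2s3y, a Y-linked gene, was detected on 6 of 6 male and 0 of 6 female arrays, and Xist, expressed from the inactive X, on 0 male and 6 female arrays. Hepatocyte markers were abundant, Ttr at a mean log2 signal of 14.5 in males and 13.9 in females, although the probe named for Alb was detected on 0 male and 1 female array. The sexes also differed technically. Mean raw signal was 136 to 167 on male and 195 to 284 on female arrays, without overlap. The 5 probes of Actb disagreed: log2 differences between males and females were -0.71, -0.35, 1.23, 0.87 and 1.14, although all report the same gene. The probes were split by the sign of that difference, and the gap between the mean of the 3 higher in males and that of the other 2 ran from 1.05 to 1.83 in males and from -2.04 to 0.40 in females, lowest on female array 64. A split by that sign makes the gap differ between the sexes by construction, so a call that ends with the gap as a covariate does not show that the probes' disagreement accounts for it. With it as a covariate, an alternative added after the data were seen, 579 genes were higher and 761 lower in males, and named genes whose call ended there are given below. Female array 64 stood apart, with a median correlation of 0.938 to its group against 0.966 to 0.982 for the other 11 arrays, so results are given with and without it.

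At 20% CR 38.2% of the measured liver genes differed by sex. Of 8291 autosomal probes, 1518 were higher (18.3%) and 1690 lower (20.4%) in males at an adjusted p under 0.05 (limma across all 72 arrays, Benjamini-Hochberg over 9031 probes). Counted by gene, with the brightest probe for each, 1038 of 6316 were higher (16.4%) and 1375 lower (21.8%). Of these, 503 and 492 passed 1.5-fold. All 6 males lay above all 6 females in 504 genes (7.98%) and below them in 437 (6.92%). The median log2 difference over all genes was -0.05, males minus females, as for every difference below. Without female array 64, 872 genes were higher (13.8%) and 1275 lower (20.2%), and 2008 were called in the same direction with and without it. Raw signal differed between the sexes, as given above. With each array's mean log2 raw signal as a covariate, added after the data were seen, 775 genes were higher and 938 lower. Probes of a gene did not always concur: of 1489 genes with several probes, 369 had 2 or more called probes, and in 73 of these they went opposite ways.

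The male side was led by secreted urinary proteins and by enzymes of steroid and drug metabolism. Mup2 had a log2 signal of 7.70 to 13.79 in males (median 11.80), against 4.25 to 5.46 in females (median 4.81). The difference was 6.30 (SE 0.74, 78.6-fold, adjusted p = 2.6e-10 in limma), although only 3 female arrays detected it. The SEs and p-values of the main fit rest on a spread shared by all 12 groups, not on that of these arrays. The SD of Mup2 was 2.68 in males and 0.50 in females. Mup6 ran from 6.74 to 12.61 in males (median 10.36) and from 4.58 to 5.43 in females (median 5.2), a difference of 4.81 (SE 0.66). The probes for these close paralogs may not tell family members apart, since probe sequences were not used here.

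Gstp2 had 7.01 to 10.11 in males (median 8.25), against 4.54 to 5.31 in females (median 4.95), a difference of 3.46 (SE 0.32, 11.0-fold). Its neighbour Gstp1 was abundant in both sexes, at 11.93 to 13.72 in males and 11.28 to 11.92 in females, and differed by 1.12 (adjusted p = 0.00025). The lowest male thus lay only just above the highest female. Cyp2d9, a male-biased cytochrome P450, had 10.45 to 13.13 in males (median 12.10) and 8.50 to 9.81 in females (median 9.40), a difference of 2.65. Cyp7b1, which hydroxylates oxysterols and steroids, had 9.02 to 11.16 in males (median 9.64) and 6.88 to 7.83 in females (median 7.58), a difference of 2.47. Susd4, a complement regulator, had 5.47 to 8.26 in males and 4.48 to 5.09 in females, a difference of 2.38, and was detected on 1 female array.

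Hsd17b6, Cfb and Ndufb9 varied less among males. Hsd17b6, an enzyme that converts androgen metabolites, had 8.36 to 8.87 in males (median 8.79) and 5.40 to 6.61 in females (median 6.05), a difference of 2.77 (SE 0.38, 6.82-fold, adjusted p = 1.6e-08 in limma). Cfb, complement factor B, had 9.99 to 10.59 in males and 7.39 to 8.29 in females, a difference of 2.26 (SE 0.18). C4a, which encodes the sex-limited protein, a complement C4 paralog of mice, had 5.30 to 7.12 in males and was detected on 0 female arrays, which makes it at least 3.08-fold higher in males. Its sequence is close to that of C4b, so the probe may read both. Ndufb9, a subunit of respiratory complex I, had 7.88 to 8.27 in males and 5.40 to 6.34 in females, a difference of 2.12. In all 10 of these genes every male lay above every female.

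**Figure D1:**
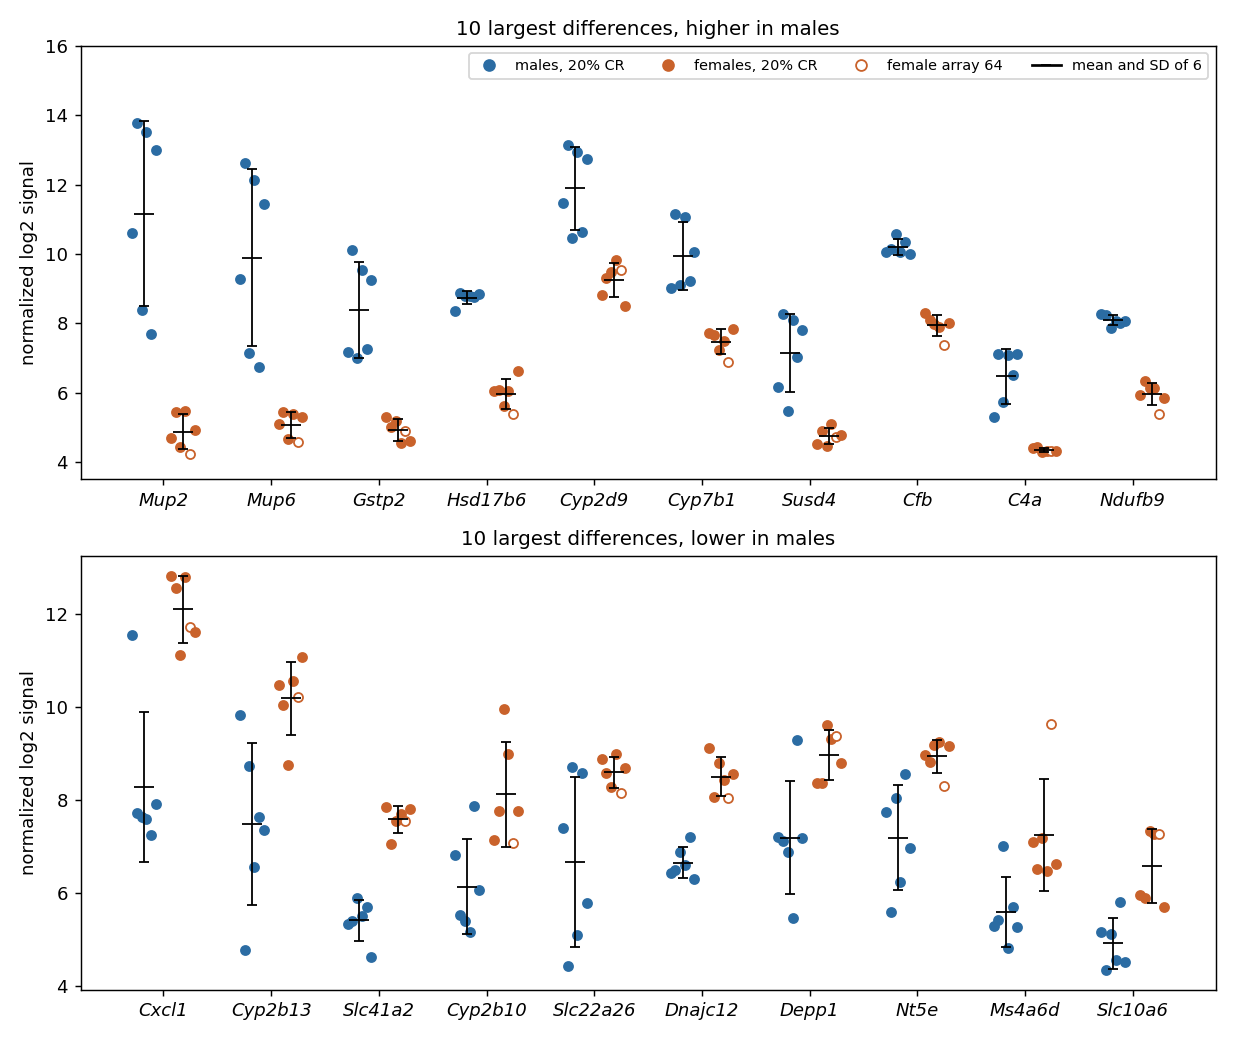
Normalized log2 signal of each array (y axis) for the 10 genes with the largest differences higher in males (upper panel) and the 10 largest lower in males (lower panel); blue points are males, orange points females, the open point female array 64, and bars the mean and SD of 6 arrays. Every male lies above every female for all 10 genes of the upper panel, whereas in the lower panel the sexes are separate for only Slc41a2 and Dnajc12.

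The female side was led by a chemokine, Cyp2b enzymes and transporters. Cxcl1, a neutrophil-attracting chemokine, had 7.25 to 11.56 in males (median 7.68), against 11.13 to 12.83 in females (median 12.14), a difference of -3.83 (SE 0.78, adjusted p = 6.1e-05 in limma). Male array 53, at 11.56, was the only male within the female range, and the next male was at 7.92. Cyp2b13 had 4.77 to 9.83 in males (median 7.50) and 8.76 to 11.09 in females (median 10.35), a difference of -2.71. Cyp2b10, the classical target of the receptor CAR, had 5.16 to 7.86 in males (median 5.79) and 7.08 to 9.95 in females (median 7.77), a difference of -1.99. For both, the sexes overlapped.

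Slc41a2, a magnesium transporter, had 4.62 to 5.90 in males (median 5.45) and 7.05 to 7.85 in females (median 7.62), a difference of -2.17 (SE 0.30). Dnajc12, a co-chaperone of aromatic amino acid hydroxylases, had 6.29 to 7.2 in males and 8.04 to 9.12 in females, a difference of -1.85. These were the only 2 of the 10 without overlap. Slc22a26, whose upstream sequence is shown above, had 4.42 to 8.70 in males (median 6.59) and 8.15 to 8.99 in females (median 8.63), a difference of -1.93. Depp1, a FOXO-responsive gene, differed by -1.79, Nt5e, the ectonucleotidase CD73, by -1.76, and Slc10a6, a transporter of sulfated steroids, by -1.66. Another probe of Nt5e was also called lower, but at -0.64. Depp1 had an adjusted p of 0.089 with the Actb probe gap as a covariate. Ms4a6d, a macrophage membrane protein, had 4.82 to 7.00 in males and 6.48 to 9.63 in females. Its difference of -1.67 became -1.19 without female array 64, where it was highest, and -0.36 (adjusted p = 0.56) with the Actb probe gap as a covariate.

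Males were not uniform in their sex-dependent genes. Male arrays 54, 56 and 59 had Mup2 at 13.79, 13.52 and 12.99, whereas male arrays 53, 55 and 57 had 10.61, 8.39 and 7.70. The same 3 males were the highest for Mup6, Gstp2, Cyp2d9, Cyp7b1, Susd4, C4a, Mup21, Ugt2b1, Gstp1 and Selenbp2. They were also the lowest for Slc22a26, at 4.42, 5.09 and 5.78 on arrays 54, 56 and 59 and 7.40 to 8.70 on the other 3, and for Nt5e, Cyp2b13 and Socs2. Male arrays 55 and 57, at 8.70 and 8.57 for Slc22a26, lay within the female range. Hsd17b6 and Cfb did not follow this order. This is a description of 6 animals, not a comparison of groups.

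Over the 23 tested male-biased genes the median SD between arrays was 0.68 in males and 0.39 in females, and 16 of 23 (69.6%) varied more among males. Over the 19 tested female-biased genes it was 0.87 in males and 0.51 in females, with 13 of 19 (68.4%) more variable among males. Over all 6316 genes the median SD was 0.21 in males and 0.23 in females, and 39.8% varied more among males.

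**Figure D2:**
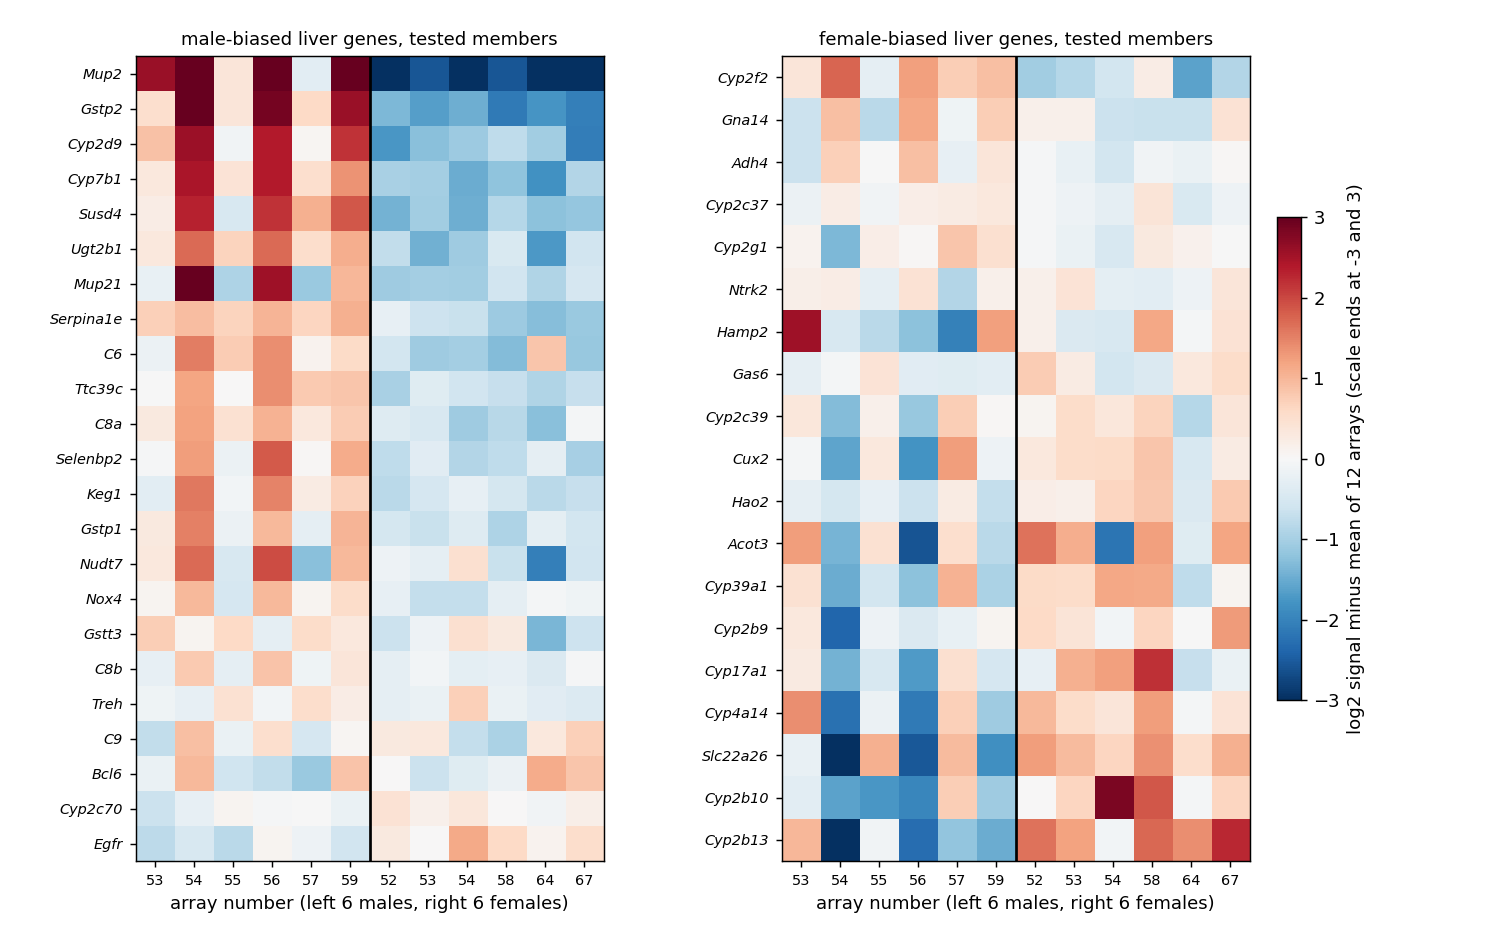
Each cell is the log2 signal of 1 array minus the mean of the 12 arrays (colour scale from -3, blue, to 3, red) for tested members of the male-biased list (left panel) and the female-biased list (right panel), ordered by sex difference; in each panel the left 6 columns are males and the right 6 females. Male arrays 54, 56 and 59 are the reddest columns on the left and the bluest on the right for many genes, and male arrays 53, 55 and 57 lie nearer the females.

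The male-biased list held 44 genes known to be higher in male mouse liver. Of these 39 were on the arrays, 23 passed the detection filter, 16 were higher in males, 1 was lower and 6 did not pass the test, with a median difference of 1.34 (background 16.4% higher and 21.8% lower). Without female array 64, 15 were higher and 1 lower. Among the 18 detected on all 12 arrays, 12 were higher and 1 lower. In 11 of the 23 every male lay above every female, against 7.98% of all genes.

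Of the 16 that missed the filter, 7 were detected on no array. These included Slco1a1, a transporter of organic anions. Cyp4a12a, Nat8 and Sult5a1 were each detected on 5 male arrays, Mup5 on 4, Mup20 and Cyp4a12b on 3, Elovl3 on 2 and Hsd3b5 on 1, and none of these on any female array. Trib3 was detected on 0 male and 2 female arrays. The filter on 6 of 12 arrays thus left out 8 genes of the list detected in males alone.

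Among tested members not yet described, Ugt2b1, a glucuronosyltransferase, had 7.63 to 9.01 in males and 5.58 to 6.85 in females, a difference of 2 on the log2 scale. Mup21 had 6.57 to 11.50 in males (median 8.08) and 6.62 to 7.19 in females (median 6.72). The lowest male therefore lay below all females, and the difference of 1.70 (adjusted p = 0.015) did not pass without male array 54 (1.11, adjusted p = 0.12) or 56 (1.36, adjusted p = 0.066). Serpina1e, a serine protease inhibitor, differed by 1.67, Ttc39c by 1.40, Selenbp2 by 1.34, Keg1, an acyltransferase-like gene, by 1.20, Nudt7, a peroxisomal coenzyme A hydrolase, by 1.08, and Nox4 by 0.71. Nudt7 did not pass without female array 64 (adjusted p = 0.093), male array 54 (0.84) or male array 56 (0.79), or with the Actb probe gap as a covariate (0.77). Egfr, the epidermal growth factor receptor, went against the list at -0.90 (adjusted p = 0.043), but its other 3 probes did not pass the test, nor did this one with the Actb probe gap as a covariate (-0.63) or when any of 7 single arrays was left out. C9 showed no difference by its brightest probe, 0.01, and 1.65 (adjusted p = 1.9e-07) by another.

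The female-biased list held 49 genes, of which 32 were on the arrays and 19 passed the filter. Of those 19, 5 were lower in males, 1 was higher and 13 did not pass the test, with a median difference of -0.67. The background was 21.8% lower and 16.4% higher, so the share called lower lay near it. Besides Cyp2b13, Cyp2b10 and Slc22a26, the lower ones were Cyp39a1, an oxysterol hydroxylase, at -0.91 and Hao2, a peroxisomal oxidase, at -0.72. Cyp39a1 did not pass when any of 5 single arrays was left out (highest adjusted p = 0.084), and Hao2 was detected on 1 male and 5 female arrays. Cux2, the female-specific repressor, had 4.25 to 7.28 in males and 5.54 to 6.85 in females. Its difference of -0.67 missed the threshold (adjusted p = 0.073) and passed it without female array 64 (-0.84, adjusted p = 0.032), which made 6 lower. Cyp2b9 (-0.94, adjusted p = 0.23) and Cyp17a1 (-1.12, adjusted p = 0.094) did not pass. Cyp2f2, an enzyme of airway and liver, went the other way, at 10.04 to 12.05 in males and 8.72 to 10.54 in females (1.57, adjusted p = 1.8e-07). The sexes overlapped in all 19 of these tested genes, whereas every male lay below every female in 6.92% of all genes. Of 13 on the arrays that missed the filter, 11 were detected on no array, including Cyp3a16, Cyp3a41a, Cyp3a44, Sult2a6, Sult3a1 and A1bg.

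**Figure D3:**
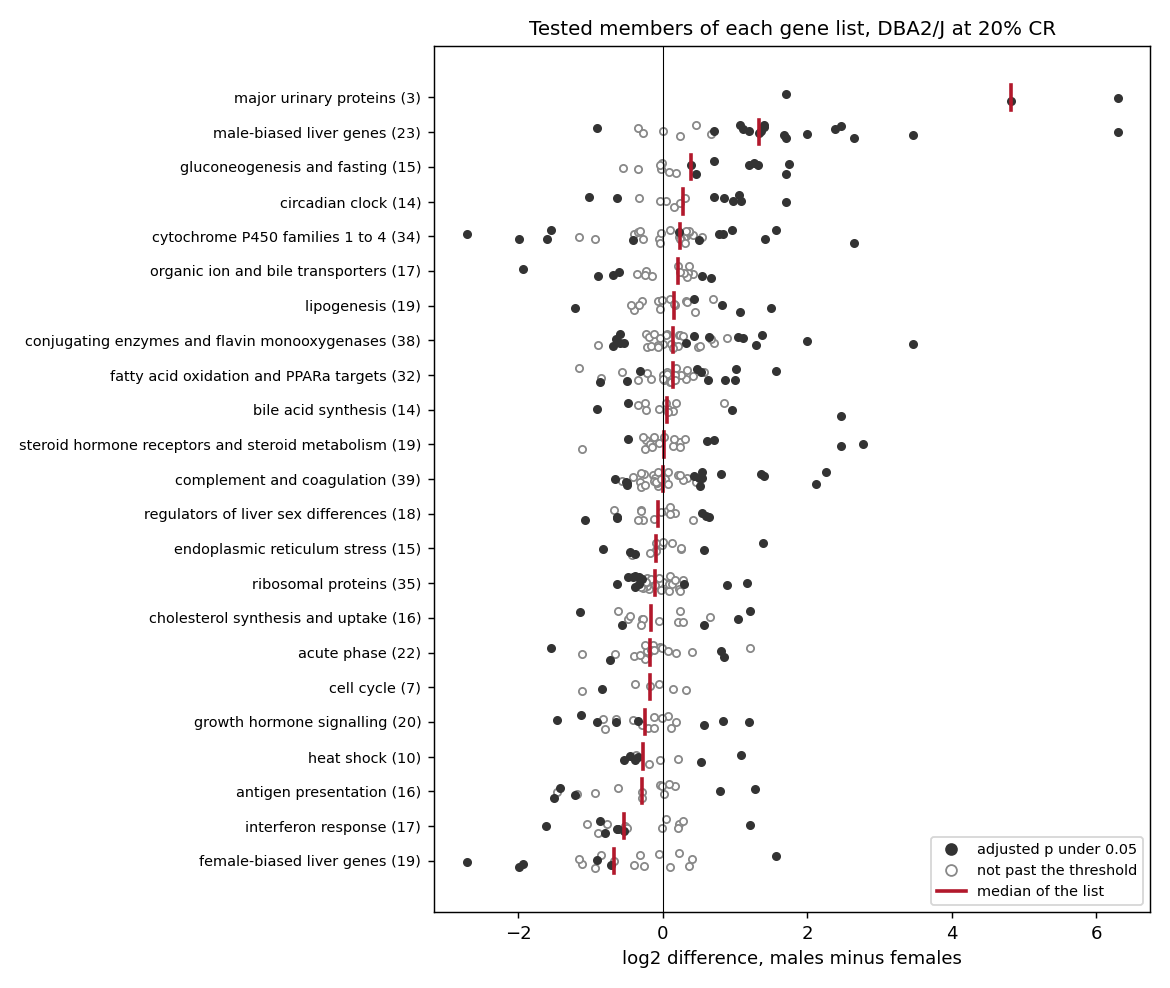
Each point is the log2 difference, males minus females (x axis), of a tested member of a gene list (rows, number tested in parentheses), filled at adjusted p under 0.05; red bars are list medians, and lists may share genes. Medians run from 4.81 for the 3 major urinary proteins and 1.34 for male-biased genes to -0.67 for female-biased genes, with most other lists near 0.

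Of 25 genes of growth hormone signalling, 20 were tested, 3 were higher in males, 5 were lower and 12 did not pass. These shares lay near the background of 16.4% higher and 21.8% lower, and the counts were 2 and 4 without female array 64. Stat3, which transmits interleukin 6 and growth hormone signals, had 8.90 to 9.70 in males and 10.16 to 10.48 in females, a difference of -1.12 (SE 0.19) without overlap, and its other 2 probes were also lower. Socs3, a cytokine feedback inhibitor, differed by -1.45 (adjusted p = 0.044), and this did not pass when any of 10 single arrays was left out, female array 64 among them (adjusted p = 0.056), or with the Actb probe gap as a covariate. Grb10, an insulin receptor adaptor, differed by -0.64. Ptpn11, a phosphatase, was at -0.34 by its brightest probe, but another of its 3 probes was called higher, at 0.35 (adjusted p = 0.0083). Ptpn1, a phosphatase of insulin and JAK2 signalling, was higher by 0.84, and Igfbp1, the fasting-responsive insulin-like growth factor binding protein, by 1.20. Igfbp1 did not pass without male array 57 (0.92) or female array 52 (1.02). Igfals, which stabilizes circulating IGF1, was higher by 0.58, and by 0.44 (adjusted p = 0.14) without female array 64, and did not pass when any of 6 single arrays was left out or with the Actb probe gap as a covariate (0.40). The remaining lower member was Egfr, given above.

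Socs2 (-0.83, adjusted p = 0.15) and Cish (-0.80, adjusted p = 0.13), both STAT5-induced inhibitors, did not pass, although Socs2 did without male array 57 (-1.23, adjusted p = 0.029). Socs2 had 7.34 to 10.22 in males and 8.04 to 10.33 in females. Igf1 had 11.66 to 11.76 in males and 11.36 to 11.78 in females (0.12, adjusted p = 0.40). Ghr, the receptor, differed by -0.11 by its brightest probe and by 0.91 (adjusted p = 0.0074) by another. Stat5b, the STAT5 form most tied to liver dimorphism, was detected on no array. With the Actb probe gap as a covariate, 2 of the 20 were higher and 2 lower.

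Among 18 tested regulators of liver sex differences, 3 were higher and 3 lower, against a background of 16.4% higher and 21.8% lower. The counts were 2 and 4 without female array 64. Ezh2, the methyltransferase of histone H3 lysine 27, had 4.39 to 5.23 in males and 5.54 to 6.62 in females, a difference of -1.07 (adjusted p = 5.4e-06), and was detected on 3 male arrays. It was -0.64 with the Actb probe gap as a covariate. Kdm6b, a demethylase of the same mark, went the other way at 0.59, with 6.34 to 6.96 in males and 5.87 to 6.26 in females. Nr1i2, the pregnane X receptor, was higher by 0.64, or 0.38 (adjusted p = 0.24) with the Actb probe gap as a covariate. Cebpa, a hepatocyte transcription factor, was higher by 0.55, but was not called without female array 64. The hepatocyte factors Foxa3 and Prox1 were both at -0.63. Bcl6, the male-biased repressor, had 5.63 to 7.71 in males and 6.09 to 7.86 in females (-0.27, adjusted p = 0.62).

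In steroid metabolism 4 of 19 tested genes were higher in males and 1 was lower. After Hsd17b6 and Cyp7b1 came Hsd17b2, which oxidizes oestradiol and testosterone, at 0.71, and Hsd3b2 at 0.61, neither of which passed with the Actb probe gap as a covariate (0.49 and 0.42). Hsd11b1, which regenerates glucocorticoid, was lower at -0.48. The steroid counts were 4 higher and 3 lower without female array 64. Of 34 cytochrome P450 genes of families 1 to 4, 8 were higher and 5 lower, or 7 and 5 without female array 64. The higher ones included Cyp2d9 and Cyp2d13 (1.42), and the lower ones Cyp2b10, Cyp2b13 and Cyp3a13 (-1.54). Cyp3a13 had 8.20 to 9.28 in males and 9.86 to 10.44 in females, and its other 2 probes were also lower.

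Of 38 conjugating enzymes and flavin monooxygenases, 9 were higher and 5 lower. Besides Gstp2, Ugt2b1 and Gstp1, Gstm4, a glutathione S-transferase, was higher by 1.37 and Ugt2b34, a glucuronosyltransferase, by 1.29, both without overlap between the sexes. Of 17 transporters of organic ions and bile, 2 were higher and 4 lower, among them Slco1a4, a female-biased transporter, at -0.89. In bile acid synthesis 2 of 14 were higher, Cyp7b1 and Baat, which conjugates bile acids to taurine (0.97), and 2 were lower. The background was 16.4% higher and 21.8% lower throughout. Higher and lower counts without female array 64 were 7 and 5 for the conjugating enzymes, 1 and 5 for the transporters and 2 and 3 for bile acid synthesis.

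Complement and coagulation genes, made mainly by hepatocytes, gave 10 higher and 4 lower of 39 tested, with a median of 0.01. The background here too was 16.4% higher and 21.8% lower. The higher ones included Cfb, C4a, C6 (1.41) and C8a (1.36). C6, a member of the membrane attack complex, had 8.01 to 9.72 in males and 6.88 to 9.02 in females, the highest female being array 64. Among clotting factors, Proc, the anticoagulant protein C, was higher by 0.54, although its other probe was at 0.21 and it did not pass with the Actb probe gap as a covariate (0.27), and F13b, a subunit of factor XIII, lower by 0.66 on the log2 scale. Without female array 64, 7 were higher and 3 lower, and with the Actb probe gap as a covariate 4 and 2.

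Of 15 tested genes of glucose production and the fasting response, 8 were higher in males and 0 lower in the limma fit. The background was 16.4% and 21.8%. This list also holds fasting-responsive genes that do not make glucose, such as Igfbp1, given above. Pck1, which makes phosphoenolpyruvate, had 6.64 to 7.61 in males (median 7.51) and 5.07 to 6.25 in females (median 5.60), a difference of 1.75 (SE 0.21). Slc37a4, the glucose-6-phosphate translocase, had 6.82 to 7.78 in males and 4.85 to 6.08 in females (1.71). G6pc, the catalytic subunit beside it, had 10.65 to 12.34 in males and 9.71 to 11.99 in females (1.26). The count was 7 without female array 64. It fell to 3 with the Actb probe gap as a covariate, where Slc37a4 was at 0.97 and G6pc did not pass.

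In fatty acid oxidation 7 of 32 were higher and 3 lower, or 5 and 3 without female array 64. The background for this and the next 2 lists was 16.4% higher and 21.8% lower. Hadh, a short-chain dehydrogenase, had 5.90 to 6.42 in males and was detected on 0 female arrays, at least 2.44-fold higher in males. Eci2, an isomerase, was higher by 1.01 and Hadhb, a subunit of the trifunctional protein, by 1.00, both without overlap. In lipogenesis 4 of 19 were higher and 1 lower, or 2 and 1 without female array 64. Pparg, the adipogenic receptor, was the lower one, at 5.11 to 6.37 in males and 6.59 to 7.00 in females (-1.21). Me1, malic enzyme, was higher by 1.07, and Thrsp, a lipogenic factor, by 1.49. Neither passed with the Actb probe gap as a covariate (0.37 and 0.56). Thrsp also did not pass without female array 64 (adjusted p = 0.10) or male array 56 (1.30). In cholesterol synthesis and uptake 3 of 16 were higher, among them Msmo1 (1.21) and Tm7sf2 (1.05), and 2 were lower, among them Insig2 (-1.14), which retains the sterol sensor in the endoplasmic reticulum. This balance turned without female array 64, to 2 higher and 5 lower. Insig2 did not pass with the Actb probe gap as a covariate (-0.91), and its other 2 probes were at -1.54 and -0.14.

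Of 14 clock genes 6 were higher in males and 2 lower, both with and without female array 64 (background 16.4% and 21.8%). Every male lay above every female in 5 of them and below in 1, against 7.98% and 6.92% of all genes. Bhlhe40, a repressor of the clock also known as Dec1, had 6.14 to 7.19 in males (median 6.96) and 4.77 to 5.58 in females (median 5.07), a difference of 1.70 (SE 0.26). Ciart was higher by 1.06, Usp2 by 0.97 and Nr1d2, which encodes REV-ERB beta, by 0.85. Clock and Nfil3 were lower, at -0.63 and -1.02. All mice were killed in the morning, and the hour of each was not used here, so its part was not tested.

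Stress programmes were mixed. Atf4, the integrated stress response factor, had 5.85 to 6.21 in males and 4.53 to 4.89 in females (1.38, adjusted p = 2.2e-11 in limma) and was detected on 1 female array. Xbp1, the unfolded protein response factor, had 9.86 to 10.25 in males and 10.50 to 11.34 in females (-0.83). Hspe1, the mitochondrial co-chaperonin, was higher by 1.09, while of 10 heat shock genes 2 were higher and 4 lower. The 15 genes of endoplasmic reticulum stress gave 2 higher and 3 lower. Ribosomal protein genes gave 3 higher and 8 lower of 35, acute phase genes 2 and 2 of 22, and cell cycle genes 0 and 1 of 7 (limma, adjusted p). The background for each list was 16.4% higher and 21.8% lower. Counts without female array 64 were 2 and 3 for heat shock and 2 and 2 for endoplasmic reticulum stress. They were 3 and 5 for ribosomal proteins, 1 and 2 for acute phase and 0 and 0 for cell cycle.

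Of 17 interferon response genes 1 was higher and 6 were lower in males, and 1 and 4 without female array 64, against a background of 16.4% higher and 21.8% lower. Stat2, a component of the interferon-stimulated complex, had 5.04 to 5.48 in males and 5.46 to 6.27 in females (-0.80, and -0.82 without array 64), while Bst2, tetherin, was higher by 1.21. Of 16 antigen presentation genes 2 were higher and 3 lower, and 2 and 1 without the array. H2-D1, a class I molecule, had 6.89 to 7.17 in males and 4.85 to 6.40 in females (1.28). Nlrc5, the activator of class I genes, had 4.82 to 6.07 in males and 6.11 to 7.65 in females (-1.21, and -1.01 without array 64).

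The 4 calls that changed most without female array 64 were class II genes and Gbp2, an interferon-induced GTPase. H2-Ea, a class II chain, had 6.95 to 8.85 in males and 7.09 to 13.23 in females. Array 64 held the 13.23, and the next female was at 9.92. The difference was -1.65 with it and -0.91 (adjusted p = 0.11) without it. H2-Ab1 was at -1.51 and -0.81, H2-DMa at -1.41 and -0.72, and Gbp2 at -1.61 and -1, with and without the array, and none of the 4 passed without it or with the Actb probe gap as a covariate. H2-Ab1 and H2-DMa also did not pass when any of 4 and 6 single arrays was left out. Other probes of H2-Ab1, at -0.99 and -1.49, did not pass even with array 64 included. Immune markers moved with array 64: the mean of the tested B cell marker was 8.26 there, against 4.83 to 5.49 in males and at most 5.40 in the other females. The 3 tested T and NK markers averaged 7.40, against 5.39 to 6.30 in males and at most 5.80 in the other females. In a tissue sample more cells of a type and more RNA per cell cannot be told apart.

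**Figure D4:**
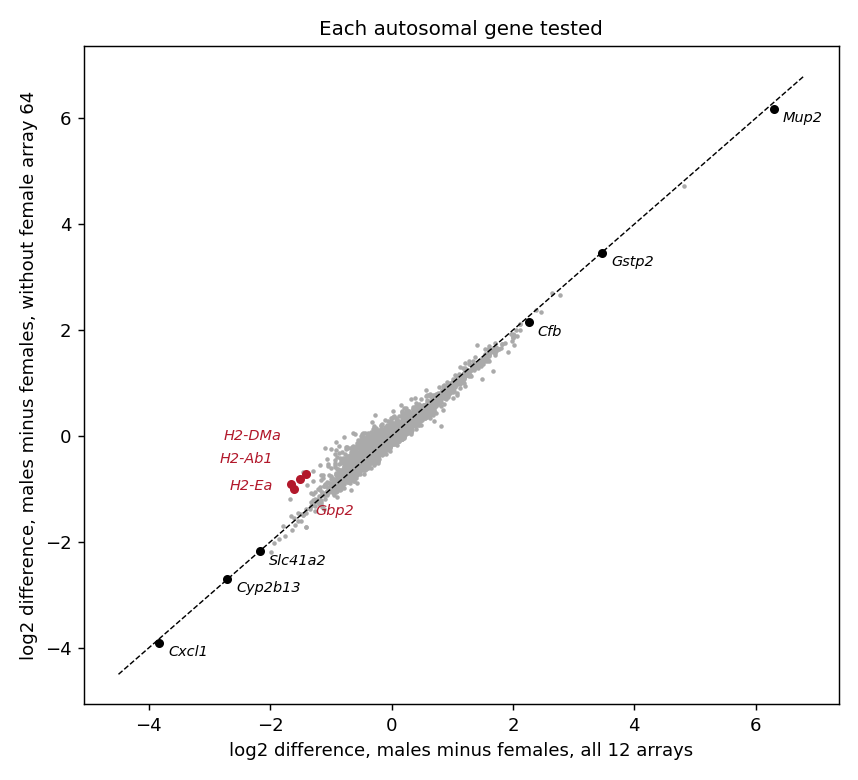
Each point is an autosomal gene, its log2 difference, males minus females, over all 12 arrays (x axis) and without female array 64 (y axis); the dashed line marks equal values. The 4 red genes, H2-Ea, H2-Ab1, H2-DMa and Gbp2, lie off the line, nearer 0 without the array, whereas Mup2, Gstp2, Cfb, Slc41a2, Cyp2b13 and Cxcl1 lie on or close to it.

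Of 12 tested hepatocyte markers 4 were higher in males and 0 lower by limma: Serpina1a (2 on the log2 scale), Rbp4 (1.72), Apoh (1.57) and Ttr (0.61), with list means of 12.84 to 12.99 in males and 12.19 to 12.52 in females. The 5 stellate and fibroblast genes called among 10 were all lower, including Rgs5 (-1.18) and Col5a1 (-0.89), with list means of 6.35 to 6.85 in males and 6.74 to 7.43 in females. Only 3 were called lower without female array 64, and the median moved from -0.65 to -0.48. The background for these lists was 16.4% higher and 21.8% lower. Of 18 endothelial genes 4 were higher, including Ptprb (0.59), and 7 lower, including Mrc1 (-0.91, and -0.25 with the Actb probe gap as a covariate, adjusted p = 0.41). Endothelial counts were 3 and 6 without female array 64. Of 14 Kupffer cell genes 2 were higher and 1 lower, or 3 and 1 without female array 64. Marco, a scavenger receptor, had 4.87 to 9.06 in males and 4.25 to 5.02 in females (1.59), the highest being male array 55, without which it was at 1.01 (adjusted p = 0.096). Timd4, highest on the same array, differed by 0.74.

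The remaining lists were small. Both tested exocrine pancreas genes, Cela1 (0.87) and Amy2a5, were higher in males, but only 1 of the 2 was called without female array 64. Amy2a5 had 6.79 to 7.38 in males and 4.88 to 6.61 in females (1.20), and list means were 7.16 to 7.92 in males and 5.68 to 6.76 in females, while 10 others on the arrays, such as Cpa1 and Ctrb1, missed the filter. Neutrophil genes gave 0 calls of 7, and the adipocyte (2), erythroid (1) and B cell (1) genes tested gave 0 by limma. Of the 3 tested T and NK genes Prf1 was higher (0.51). No cholangiocyte marker passed the filter. The part of cell composition in the results above was not tested.

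Set against the other diets of the strain, more genes differed by sex under restriction than under AL. On the same genes, chosen by detection at 20% CR, 187 were higher (2.96%) and 280 lower (4.43%) in males at AL, 1038 and 1375 at 20% CR, and 876 (13.9%) and 810 (12.8%) at 40% CR. Of the genes higher in males at 20% CR, 10.9% were also higher at AL, which is 60.4% of the AL list, and 562 at 40% CR (54.1% of the list at 20% CR and 64.2% of that at 40% CR). In C57BL/6J at 20% CR 419 were higher (6.63%) and 379 lower (6%), and 291 higher genes were shared (28.0% of the DBA2/J list and 69.5% of the C57BL/6J list). Of the genes lower in males at 20% CR, 9.82% were also lower at AL, which is 48.2% of the AL list, 428 at 40% CR (31.1% and 52.8%) and 169 in C57BL/6J (12.3% and 44.6%). These sex differences share no arrays with each other, and the gaps between them were tested directly.

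The sex difference at 20% CR was greater, in the sense of a positive difference of differences, than that at AL in 498 genes (7.88%) and smaller in 477 (7.55%). Hsd17b6 differed between the sexes by -0.38 at AL, 2.77 at 20% CR and 1.80 at 40% CR. Its means at AL were 5.23 in males and 5.60 in females, so the gap between 20% CR and AL was 3.15 (SE 0.53, adjusted p = 3.4e-05 in limma). Cfb was at 0.32, 2.26 and 1.64 over the 3 diets, with a gap to AL of 1.94. Mfsd2a, a fasting-induced lipid transporter, was at -2.31, -0.03 and -0.16, and Dio1, the thyroid hormone deiodinase, at -1.37, 0.82 and -1.41. The gap for Dio1, 2.19, did not pass without female array 64 (1.55, adjusted p = 0.053), and a second Dio1 probe differed by 1.60 at 20% CR.

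In the other direction, Gstp2 differed by 6.09 at AL, 3.46 at 20% CR and 0.93 at 40% CR, a graded series in which both steps passed the test (-2.62 against AL, adjusted p = 4.9e-05, and 2.53 against 40% CR, adjusted p = 0.0020). Its male means were 11.00, 8.39 and 5.95 over the 3 diets, and its female means 4.91, 4.92 and 5.02. Mup21 was at 4.2, 1.70 and -0.01, although only the gap to AL passed (-2.50, adjusted p = 0.028). Cxcl1 differed by 0.41 at AL, -3.83 at 20% CR and -2.85 at 40% CR. Its male means were 11.35, 8.28 and 8.53, and its female means 10.95, 12.11 and 11.38, so the gap to AL was -4.23 (adjusted p = 0.0049).

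Against 40% CR 92 genes had a positive gap (1.46%) and 164 a negative one (2.6%). With each array's mean log2 raw signal as a covariate, added after the data were seen, 2 positive calls were left and 0 negative ones by limma, with 345 and 464 at an unadjusted p under 0.05. Of the 6 genes with the largest gaps, only Gstp2 passed there. Pdk4, a fasting-induced kinase, differed by 0.25 at AL, -0.57 at 20% CR and -3.12 at 40% CR, and Fgf21, a fasting hormone, by -0.62, 0.26 and -2.28, with means at 40% CR of 6.88 in males and 10.01 in females for Pdk4 and of 5.32 and 7.59 for Fgf21. The gap for Pdk4 (2.56, adjusted p = 0.041) did not pass without female array 64 (2.23), nor did that for Phf11d (-1.98). Cyp2b10 was at -0.94, -1.99 and 0.49, Phf11d at -0.41, -0.81 and 1.36, and Ces2e, a carboxylesterase, at 0.00, -0.41 and 1.02.

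The median sex difference over the 23 male-biased genes was 1.45 at AL, 1.34 at 20% CR and 0.61 at 40% CR in DBA2/J. In C57BL/6J at 20% CR it was 1.17. Over the diets 14, 16 and 8 were higher in males, and 14 in C57BL/6J, while 1 was lower, at 20% CR alone. Over all genes 2.96%, 16.4% and 13.9% were higher, and 6.63% in C57BL/6J. The median over the 19 female-biased genes was -0.82, -0.67 and -0.06 over the diets, and -0.83 in C57BL/6J. Of these, 8, 5 and 3 were lower, and 7 in C57BL/6J, while 1, 1 and 4 were higher, and 1 in C57BL/6J. Over all genes 4.43%, 21.8% and 12.8% were lower, and 6% in C57BL/6J. Slc22a26 differed by -3.15, -1.93 and -0.18 over the diets, and its male means were 4.91, 6.66 and 8.37 against female means of 8.07, 8.59 and 8.55. Cyp2b13 was at -4.22, -2.71 and -0.25. Neither gap to 20% CR passed the test for these 2 genes. Of the 19, Cyp2c39 (1.63, adjusted p = 0.021) and Cyp2g1 (1.24, adjusted p = 0.020) had called gaps between 20% CR and AL, and Cyp2b10, given above, between 20% CR and 40% CR. Between 20% CR and AL, 2 male-biased genes, Mup21 and Gstp2, had a called gap, and between 20% CR and 40% CR 2 did, Gstp2 and Susd4.

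**Figure D5:**
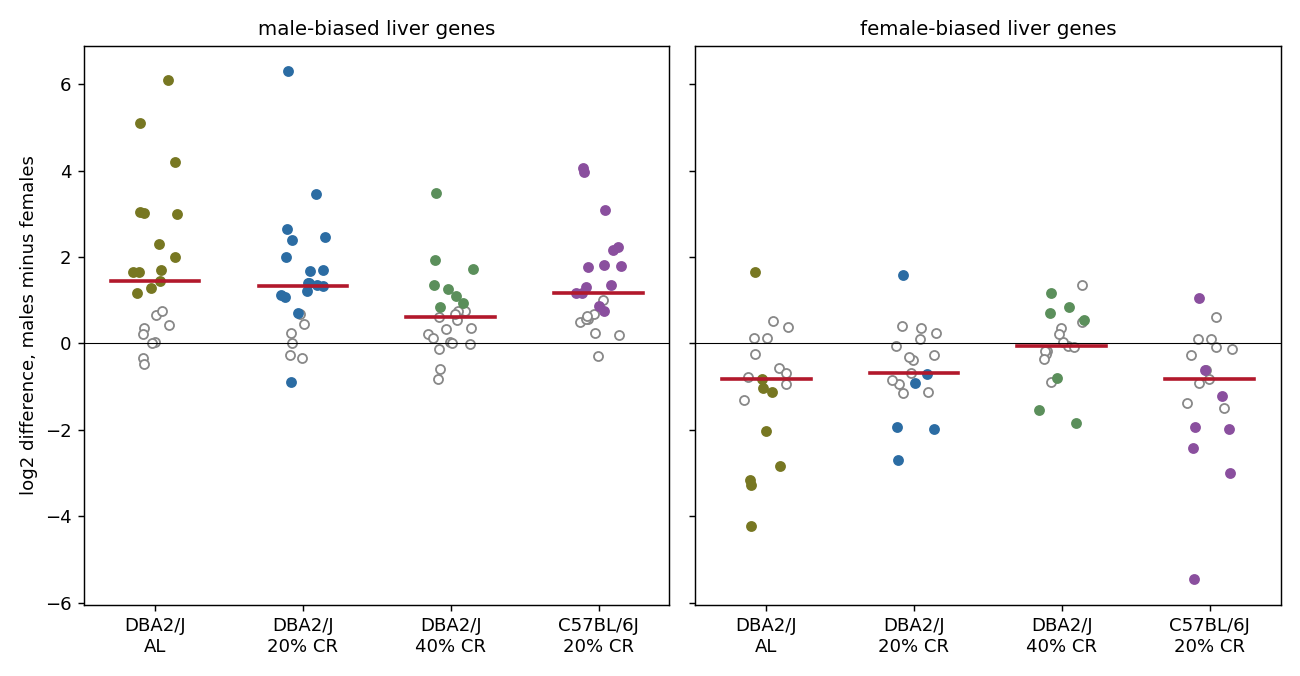
Each point is the log2 sex difference, males minus females (y axis), of a tested member of the male-biased list (left panel, 23 genes) and the female-biased list (right panel, 19 genes) in DBA2/J at AL, 20% CR and 40% CR and in C57BL/6J at 20% CR; filled points have an adjusted p under 0.05 and red bars are medians. Medians in DBA2/J lie at 1.45, 1.34 and 0.61 on the left and at -0.82, -0.67 and -0.06 on the right.

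Between the strains at 20% CR, DBA2/J minus C57BL/6J, 376 genes had a positive gap (5.95%) and 388 a negative one (6.14%). With array brightness as a covariate these were 44 and 29. Cyp2b13 differed between the sexes by -2.71 in DBA2/J and -5.46 in C57BL/6J, with male means of 7.48 and 6.03. This gap (2.75, adjusted p = 0.039) did not pass without female array 64 (adjusted p = 0.051). Hal, which starts histidine breakdown, differed by 1.54 in DBA2/J and -0.69 in C57BL/6J, a gap of 2.23 (SE 0.37, adjusted p = 5.9e-05). Hsd17b6 was at 2.77 and 0.57 in the 2 strains, Slc41a2 at -2.17 and -0.32, Depp1 at -1.79 and 0.51, and Cd9, a tetraspanin, at -1.05 and 0.68. The part of strain differences in probe binding was not tested. The gaps for Hsd17b6, Depp1 and Cyp2b13 did not pass with the brightness covariate.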

How the data were processed

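Liver RNA was labelled with an Illumina amplification kit per the labels, and arrays were read with GenomeStudio 2011.1 per the submitters' processing notes. The authors deposited a probe intensity for each of 72 arrays, neither background-corrected nor normalized as far as the values show, and a detection p-value beside each per the file headers. A further deposited table holds a score, the z-score of log10 signal within each array (checked on 72 of 72 samples). It served as an alternative, since its columns alone carry replicate numbers.

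Intensities were corrected, quantile-normalized and log2-transformed with limma 3.58.1 neqc (offset 16, in R 4.3.3). lmFit and eBayes fitted 12 group means over all 72 arrays, since a shared spread serves every contrast. P-values are two-sided and Benjamini-Hochberg adjusted over the 9031 probes detected at p under 0.01 on 6 or more of the 12 arrays. Only autosomal probes are reported. Genes were named from the platform's probe table and placed on GRCm38.p6. Each gene is read by its brightest probe. A gene detected on no array of a sex is given as "at least" a fold over the lowest signal among detected probes of each array, or the probe's own signal where higher. Named genes are the 10 largest differences in each direction called with and without female array 64, up to 4 per list by adjusted p, members of the male-biased, female-biased, growth hormone and regulator lists, the 3 largest gaps per comparison and direction, the 4 calls that changed most without that array and the sex check genes. Clock, Nfil3, Prf1 and Cela1 were named to account for small counts after their values were seen.

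The members and gene lists were chosen with earlier results of these data known. 1 of the DBA2/J males at 40% CR is given the other strain in 1 label and was kept by its title. The source names of the DBA2/J males at 20% CR carry the female letters, whereas their titles, sex entries and signal columns say male, as do the sex check genes on the signal arrays. Replicates are separate mice per the labels, and the number of arrays limits the precision. Alternatives were other normalizations, filters, left-out arrays, the z-scores, a replicate block and 2 covariates added after the data were seen. The fit was also tested on simulated data, with independent noise of the same spread in every group, so that test does not cover the unequal spread of the sexes given above.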

Additional observations from a re-analysis of the deposited data

Results flagged for a closer look

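In 16 of 218 groups of 6 arrays (the named genes, each sex) the highest or lowest array stood apart from the other 5 by Dixon's criterion. Chance alone flags about 1 group in 20. Female array 64 gave 5 of the 16. It was high for Ms4a6d (9.63, next 7.17) and C6 (9.02, next 7.63), and low for Me1 (4.53, next 5.87), Msmo1 (5.66, next 6.88) and Apoh (9.03, next 9.40). Female array 67 was high for Atf4 (4.89, next 4.66).

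Male array 53 was high for Cxcl1 (11.56, next 7.92) and low for Hsd17b6 (8.36, next 8.77) and Pck1 (6.64, next 7.43). Male array 54 was low for Cyp2b9 (7.01, next 8.95). Male array 55 was high for 2 Kupffer cell genes, Marco (9.06, next 6.17) and Timd4 (7.19, next 5.5), and low for Apoh (10.79, next 10.97). Male array 57 was high for Phf11d (8.62, next 6.74) and Ces2e (5.77, next 5.24) and low for Bhlhe40 (6.14, next 6.8).

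The sex difference itself differed from that of another group, by a test of the difference in limma, in the following genes. Between 20% CR and AL the log2 gap was 3.15 for Hsd17b6, 2.28 for Mfsd2a, 2.19 for Dio1, -4.23 for Cxcl1, -2.62 for Gstp2 and -2.5 for Mup21. Between 20% CR and 40% CR it was 2.56 for Pdk4, 2.53 for Fgf21, 2.53 for Gstp2, -2.48 for Cyp2b10, -2.17 for Phf11d and -1.43 for Ces2e. Between DBA2/J and C57BL/6J at 20% CR it was 2.75 for Cyp2b13, 2.23 for Hal, 2.20 for Hsd17b6, -2.30 for Depp1, -1.85 for Slc41a2 and -1.73 for Cd9.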

How the results depend on the processing

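With each of the 12 arrays left out in turn, 1277 to 1565 probes and 872 to 1066 genes were higher, and 1470 to 1717 probes and 1200 to 1394 genes lower, in males. Normalized and fitted on the 12 arrays alone, 904 genes were higher and 1093 lower, and 8 named genes lost their call. The authors' z-scores gave 781 genes higher and 2053 lower (27.6% of calls higher, against 43% in the main result), with 2571 probes lower. They gave 329 genes with a positive gap against AL, 186 positive and 793 negative against 40% CR (54 and 294 without the sample of conflicting labels), and 239 and 658 against C57BL/6J. With a replicate block on the z-scores of the 12 samples, 901 probes and 640 genes were higher, against 768 genes without the block. Males and females of the same replicate number correlated at -0.43 to 0.11, and 0 of 6 males correlated best with their own number. With only 6 numbers this does not settle whether they mark a shared block. With array brightness as a covariate, 775 genes were higher and 938 lower in males. Under it 2 and 0 genes had gaps against 40% CR by limma (345 and 464 at an unadjusted p under 0.05) and 44 and 29 against C57BL/6J. With the Actb probe gap as a covariate, 853 probes and 579 genes were higher and 978 and 761 lower, and H2-DMa turned to 0.22 (adjusted p = 0.82). Among the named genes, 8 lost their call and 1 gained one without female array 64, and under the Actb covariate 18 lost it beside H2-DMa and 1 gained one. Under the brightness covariate 10 lost their call and 0 gained one. The cause of these changes was not tested. The genes that lost their call under the brightness covariate, or on the 12 arrays alone, are not marked as such where they are described above. Only 6 arrays per sex, and probes near background in females such as Mup2, limit the precision of folds.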
